A study of Mus musculus with 4 samples.

Results

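The mRNAs of the stress hormone receptors and of corticotropin-releasing hormone (CRH) signaling were examined in the medial prefrontal cortex (mPFC) of mice with depression-like behavior induced by chronic unpredictable mild stress (CUMS) versus control mice. The 7 genes were chosen by name, and each of them had 1 row among the 17778 genes of the deposited table. They are Nr3c1, Nr3c2, Crh, Crhr1, Crhbp, Hsd11b1 and Fkbp4. The mice of both groups were C57BL/6 (C57BL/6J in the study's methods) males that entered the procedure at postnatal day 21, and the labels name no transgene or drug. The CUMS group (2 libraries) had gone through weeks of mild stressors in changing order and had been kept for sequencing because it then scored as depression-like in sucrose preference, Y-maze and forced swimming. No stressor was applied to the control group (2 libraries). Only this vulnerable part of the stressed mice was sequenced, so that the comparison holds no stressed mice that stayed unaffected, and the behavior tests preceded dissection. RNA was isolated mouse by mouse, and whether RNA of several mice was joined in a library was not given in the sources used here.

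The values were mean RPKM, that is read density per kilobase scaled to library size, averaged by the authors over the libraries of each group. Each gene thus has a pair of means, 1 for each group. Without values of individual mice, the differences below have no replicate check and no test between mice. The 95% intervals come from fragment numbers estimated from the low values (about 7385524 in a control library, 7440476 in a CUMS library) and cover counting error only. The dissected tissue carried the markers of neocortex. All 8 marker genes of its excitatory neurons were present, with Slc17a7, the vesicular glutamate transporter of these neurons, at 635 RPKM in control versus 791 RPKM in CUMS.

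Corticosterone, the main glucocorticoid of mice, enters brain cells and binds a pair of nuclear receptors. The mineralocorticoid receptor (Nr3c2) binds it tightly and is occupied at rest, whereas the glucocorticoid receptor (Nr3c1) fills when the hormone rises under stress. Before they bind the hormone both receptors sit in a complex with the chaperone HSP90. In this complex FKBP52 (Fkbp4) helps the glucocorticoid receptor towards hormone binding and the nucleus, and FKBP51 (Fkbp5) holds it back. The enzyme HSD11B1 regenerates active corticosterone inside the cell. CRH starts the hormonal stress response from the hypothalamus, but it is also made by interneurons of the cortex, where it acts through its receptor CRHR1 on nearby neurons and is captured by a binding protein, CRHBP.

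The gene with the largest difference in these 7 was Fkbp4 (gene 14228, chromosome 6, 128430103 to 128438656, minus strand). Short stretches of promoter are shown for Fkbp4, for Nr3c2 and for the heat shock gene Hspa1a. They were picked because each of these genes had a lower mean in CUMS, with a counting interval below equal levels. Each stretch also holds the core of a heat shock element, GAANNTTC. This core is only a part of the letter pattern read by heat shock factors. The capitals mark this core, each stretch is 30 bases long, and the sequences are from RefSeq on GRCm38.p6, 5′ to 3′ on the strand of the gene.
Fkbp4 (chr6:128438789-128438818, minus strand): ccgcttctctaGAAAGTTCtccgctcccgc
Nr3c2 (chr8:76902168-76902197, plus strand): gacagcgacctGAACTTTCtggacatgtga
Hspa1a (chr17:34972242-34972271, minus strand): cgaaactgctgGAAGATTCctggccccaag
The core begins 151 bases before the listed transcript start in Fkbp4 and in Nr3c2, and 104 bases before it in Hspa1a. The Nr3c2 stretch lies inside the gene, in no annotated exon, upstream of an internal start. The promoter at the beginning of the Nr3c2 span was not among those searched. The Fkbp4 stretch lies outside Fkbp4 and overlaps an exon of the neighboring Gm10069. Promoters of 300 bases were found for 5 of the 7 members, and those of Fkbp4 and Nr3c2 held the core, whereas those of Crhr1, Crhbp and Hsd11b1 did not, nor did those of the chaperone genes Dnajb1 and Stip1, which had lower means as well. The same 8 letters, which read alike on both strands, occur in 7.86% of all 32851 promoters of this length. A cAMP response element, TGACGTCA (in 1.79% of all promoters), and the glucocorticoid response element GAACANNNTGTTC (in 0.0578%) were in 0 of the 5 member promoters. The motifs were chosen after the values had been seen, and a match is a description of letters only.

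Levels of the 7 genes ranged over a wide span. Their order depends on the gene lengths that the authors used, which the counting intervals do not cover. Fkbp4 was by far the most abundant per length, at 72.7 RPKM in control, a level above that of 92.4% of genes with at least 0.5 RPKM. Next came Crhr1 at 12.5 RPKM, Nr3c1 at 11.6 RPKM, Nr3c2 at 7.85 RPKM, Crhbp at 7.68 RPKM and Hsd11b1 at 6.65 RPKM in control. Crh was the lowest, at 2.37 RPKM in control. In the order of control levels, Crhr1 and Nr3c1 were not apart beyond counting error (log2 difference 0.10, interval -0.05 to 0.26), nor were Nr3c2 and Crhbp (0.03, -0.21 to 0.27) or Crhbp and Hsd11b1 (0.21, -0.11 to 0.53). In CUMS the order was the same for the first 3 genes and for Crh, with Crhr1 now above Nr3c1 by more than counting error (0.25, 0.09 to 0.40), while Nr3c2 moved from place 4 to place 6, behind Crhbp and Hsd11b1. These last neighbors were again not apart from each other (Crhbp over Hsd11b1 0.14, -0.18 to 0.46; Hsd11b1 over Nr3c2 0.07, -0.21 to 0.36).

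**Figure D1:**
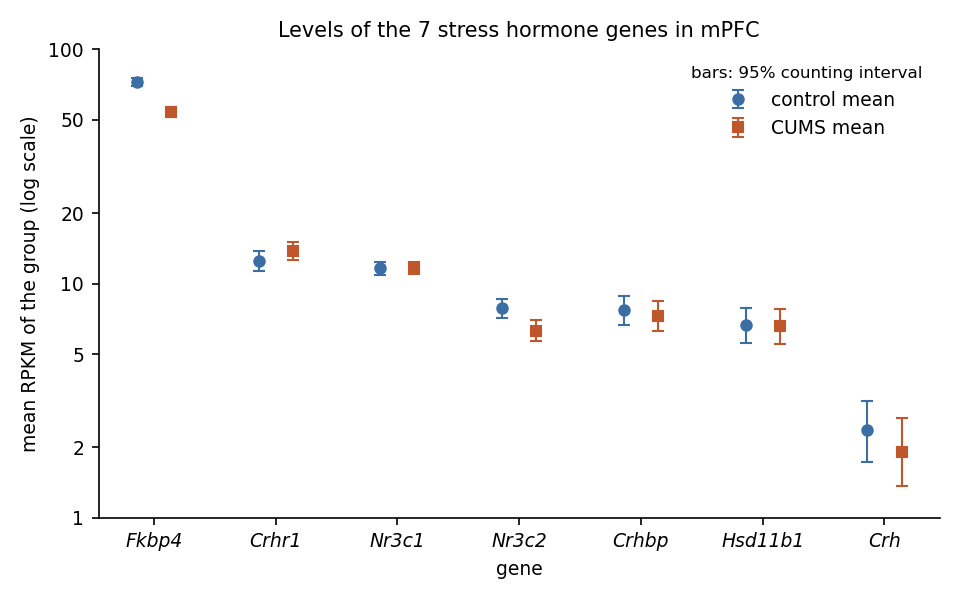
Mean RPKM (log scale) of the 7 genes in the control group (circles) and the CUMS group (squares), each the authors' mean over 2 libraries, with bars for the 95% counting interval. Fkbp4 stands far above the others and its intervals do not overlap (69.8 to 75.7 RPKM in control, 51.4 to 56.5 RPKM in CUMS), those of Nr3c2 do not overlap either, and those of the other genes do.

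Of the 7 genes, 5 had a lower mean in CUMS, 1 had a higher mean and 1 had equal means. A mean of 0.5 RPKM or more in one of the groups was reached by 14257 genes, and 53.2% of these had a lower mean. None of the 7 genes passed a fold change of 1.5 (0 of 7, against 7.2% of all genes). The study used this fold together with a probability of change. The probability was not applied here, so that 7.2% is the share past the fold alone and not the share that the study called. At the estimated depth, the counting interval lay below equal levels in 2 members, Fkbp4 and Nr3c2, and above it in 0. Over all genes at this depth, the interval lay below in 16.8% and above in 12.5%. The width of an interval depends on fragment number, for which these shares were not matched. At 2 times the estimated depth, the interval of Crhr1 would lie above equal levels. The median log2 ratio of the members was -0.08, and that of all genes was -0.02. In bulk tissue, fewer cells that make a transcript and less of it per cell cannot be told apart.

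The receptors for corticosterone differed from each other in their behavior. Nr3c1 (gene 14815, chromosome 18, 39410545 to 39519421, minus strand) had the same mean in both groups, 11.6 RPKM, from about 1088 and 1096 fragments. Its log2 ratio was 0.00 with an interval of -0.12 to 0.12, so that counting alone would leave room for a difference of 1.09-fold at most in either direction. Nr3c2 (gene 110784, chromosome 8, 76898083 to 77245012, plus strand) measured 7.85 RPKM in control versus 6.30 RPKM in CUMS (474 and 383 fragments). This is 0.803 of the control mean, a log2 ratio of -0.32 (-0.52 to -0.12). The ratio was lower in 11.5% of all genes and in 5.45% of genes of at least 5 RPKM. Exons of Nr3c2 share 247 bases with the antisense transcript Gm10649, and the use of strand in counting was not given in the sources used here.

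Since the balance of the receptors is often read as one quantity, their ratio was computed within each group. The level of Nr3c1 was 1.48 times that of Nr3c2 in control and 1.84 times in CUMS. These levels depend on the gene lengths used. The deposited length of Nr3c2, 4087 bases, equalled that of no transcript in GENCODE M21 (nearest 3804, longest 5916 bases). The difference between the groups does not depend on length. On the log2 scale the ratio of Nr3c1 to Nr3c2 differed by 0.32 between the groups (counting interval 0.09 to 0.55). The whole of that difference lay in the Nr3c2 term.

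Hsd11b1 (gene 15483, chromosome 1, 193221640 to 193264045, minus strand), the enzyme that reactivates corticosterone, measured 6.65 RPKM in control versus 6.62 RPKM in CUMS, from 133 fragments in each group. The log2 ratio was -0.01 (-0.37 to 0.35), and counting error alone spans 0.775-fold to 1.27-fold. H6pd, which supplies the cofactor of this enzyme, was 2.82 and 2.87 RPKM. The opposing enzyme Hsd11b2, which inactivates corticosterone, was listed at 0.01 RPKM in control versus 0.04 RPKM in CUMS, at or under 1 fragment, and no fold is given.

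The co-chaperone Fkbp4 measured 72.7 RPKM in control versus 53.9 RPKM in CUMS (2328 and 1739 fragments). This is 0.741 of the control mean, or 1.35-fold lower, with a log2 ratio of -0.43 (-0.52 to -0.34). The ratio was lower in 7.16% of all genes, in 2.70% of genes of at least 5 RPKM and in 1.33% of the 4196 genes of at least 20 RPKM. The spread of ratios narrows with level, as the plot of change against level shows. With a smaller threshold, a ratio past 0.8 in either direction, Fkbp4 was the member called (1 of 7), where 18.9% of all genes and 8.41% of those of at least 5 RPKM were. Nr3c2 (0.803 of the control mean) and Crh (0.81) lay just short of this threshold.

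**Figure D2:**
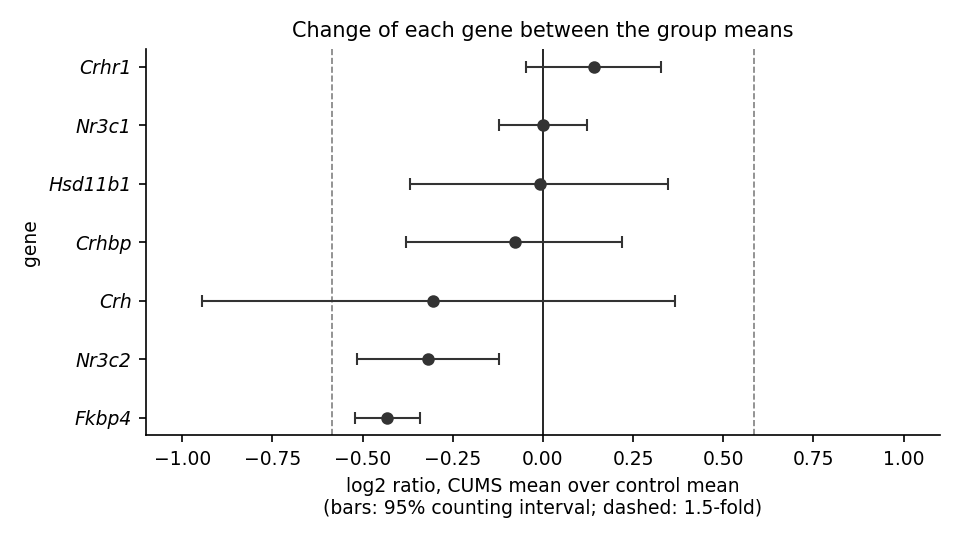
Log2 ratio of CUMS over control means (horizontal axis) for each of the 7 genes (vertical axis), with bars for the 95% counting interval and dashed lines at a fold of 1.5. All points lie inside the dashed lines, the intervals of Fkbp4 and Nr3c2 lie below 0, and that of Crh, with the fewest fragments, is the widest (-0.95 to 0.37).

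The opposing co-chaperone Fkbp5, itself a target of the glucocorticoid receptor, measured 11.8 RPKM in control versus 10.6 RPKM in CUMS, a log2 ratio of -0.15 (-0.31 to 0.01). The level of Fkbp4 was 6.18 times that of Fkbp5 in control and 5.07 times in CUMS, a difference of -0.28 in log2 (counting interval -0.46 to -0.10). Against Nr3c1, whose means were equal, the Fkbp4 level was 6.27 times in control and 4.65 times in CUMS.

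Fkbp4 was next set beside 12 chaperones and co-chaperones of the steroid receptors. Of these, 7 had a lower and 5 a higher mean in CUMS, with a median log2 ratio of -0.05. The counting interval lay below 0 in 4 of the 12 and above 0 in 0 (16.8% and 12.5% of all genes, not matched for fragment number). Hspa8, the most abundant of them, measured 1041 RPKM in control versus 987 RPKM in CUMS (log2 ratio -0.08, -0.10 to -0.06). The HSP90 genes that hold the receptors were nearly level, Hsp90aa1 at 191 and 188 RPKM and Hsp90ab1 at 674 and 679 RPKM in control and CUMS. Hspa1a, an HSP70 that is induced by heat and cell stress, measured 7.74 RPKM in control versus 4.49 RPKM in CUMS (log2 ratio -0.79, -1.05 to -0.52), the only gene of this list past a fold of 1.5. Dnajb1, a co-chaperone of HSP70, had a log2 ratio of -0.34 (-0.45 to -0.23). Stip1, which hands client proteins from HSP70 to HSP90, had a log2 ratio of -0.30 (-0.38 to -0.22). The co-chaperones Ptges3, Ppid, Ppp5c, Bag1 and St13 had log2 ratios between -0.07 and 0.09, and their intervals all included 0. Hspa8, Dnajb1 and Stip1 were named after their values had been seen.

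**Figure D3:**
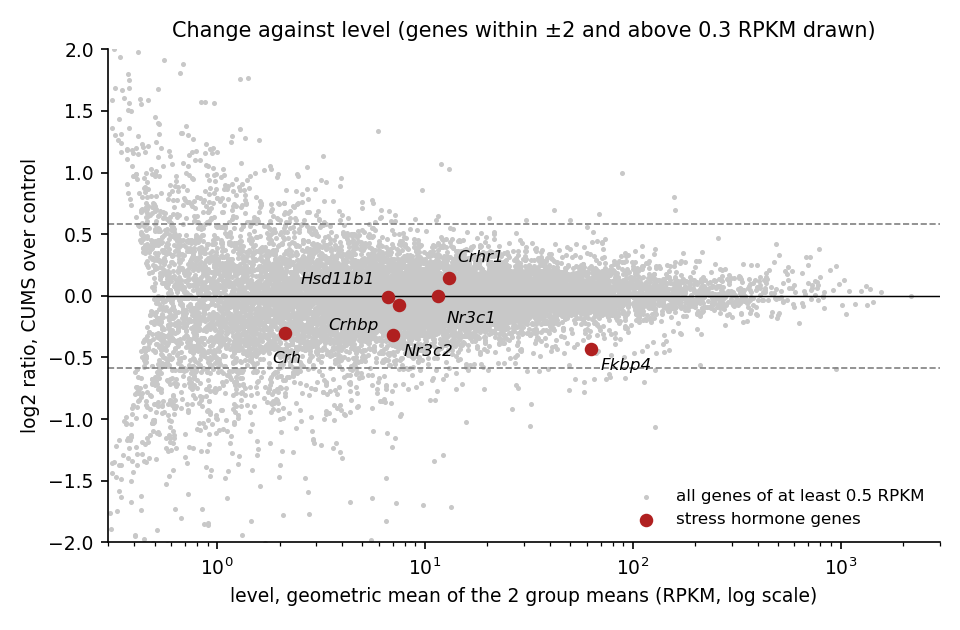
Log2 ratio of CUMS over control (vertical axis) against the geometric mean of both group means in RPKM (log scale) for genes of at least 0.5 RPKM (grey) and the 7 stress hormone genes (red), with dashed lines at a fold of 1.5. Fkbp4 lies at the lower edge of the genes of its level, while Nr3c1 and Hsd11b1 lie on the zero line.

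CRH itself was scarce. Crh (gene 12918, chromosome 3, 19693401 to 19695396, minus strand), the peptide ligand, measured 2.37 RPKM in control versus 1.92 RPKM in CUMS, which rests on about 46 and 38 fragments. The log2 ratio of -0.30 had an interval of -0.95 to 0.37, that is 0.519-fold to 1.29-fold, and a difference was not detectable at this depth. The deposited gene length of 1320 bases equalled that of the 1 transcript of Crh in GENCODE M21.

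The receptor Crhr1 (gene 12921, chromosome 11, 104130463 to 104175523, plus strand), which couples CRH to cyclic AMP, was the member with a higher mean in CUMS. It measured 12.5 RPKM in control versus 13.8 RPKM in CUMS (448 and 497 fragments), with a log2 ratio of 0.14 (-0.05 to 0.33). The binding protein Crhbp (gene 12919, chromosome 13, 95431376 to 95444831, minus strand) measured 7.68 RPKM in control versus 7.28 RPKM in CUMS (193 and 184 fragments), with a log2 ratio of -0.08 (-0.38 to 0.22). Both intervals included equal levels. With 2 times the estimated depth that of Crhr1 would not (0.01 to 0.27).

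Receptor and binding protein each exceeded the ligand per length. The level of Crhbp was 3.25 times that of Crh in control and 3.80 times in CUMS, a log2 difference of 0.23 (-0.46 to 0.91). Crhr1 was 5.28 times Crh in control and 7.19 times in CUMS, a log2 difference of 0.45 (-0.20 to 1.09). With so few Crh fragments neither ratio was apart between the groups.

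Interneuron markers were read beside Crh and Crhbp because interneurons make both in cortex. Of 10 such markers, 5 were lower and 5 higher in CUMS, with a median log2 ratio of -0.14. The genes of GABA synthesis and packaging, Gad1, Gad2 and Slc32a1, had log2 ratios of -0.60, -0.88 and -0.78, each past a fold of 1.5, and Lhx6, a transcription factor of interneurons, had a log2 ratio of -0.43 with an interval below 0. Peptides of single interneuron classes differed from these. Vip, a peptide of interneurons many of which contain CRH, measured 15.7 RPKM in control versus 22.3 RPKM in CUMS (log2 ratio 0.51, 0.31 to 0.71). Sst, the peptide of the interneurons that contain CRHBP, was 314 and 326 RPKM (log2 ratio 0.05, -0.02 to 0.13). These 6 genes were named from the list after their values had been seen. The study had already reported Gad1, Gad2 and Slc32a1 as lowered. The part of the 6 genes in the values of Crh and Crhbp was not tested.

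The second CRH receptor had a larger difference than any of the 7 members. Crhr2, the receptor preferred by the urocortins and best known from the lateral septum, measured 1.38 RPKM in control versus 0.60 RPKM in CUMS (54 and 24 fragments), a log2 ratio of -1.20 (-1.94 to -0.46). Crhr1 was 9.04 times Crhr2 in control and 22.9 times in CUMS, a log2 difference of 1.34 (0.62 to 2.06). The urocortins Ucn, Ucn2 and Ucn3 rested on 2 fragments or fewer in each group, under the floor of 3 fragments, so that no fold is given. Besides Crhr2, 0 of the 3 other genes of this family reached 0.5 RPKM.

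The vasopressin, oxytocin and melanocortin genes, which act with CRH in the stress axis, had 8 rows for 9 genes. Of 5 genes of at least 0.5 RPKM, 4 were lower in CUMS, and the median log2 ratio was -0.51. Avpr1a, a vasopressin receptor, measured 0.79 RPKM in control versus 0.205 RPKM in CUMS (31 and 8 fragments), a log2 ratio of -1.95 (-3.30 to -0.81). Oxt, the oxytocin peptide of the hypothalamus, measured 1.21 RPKM in control versus 0.15 RPKM in CUMS (8 and 1 fragments), a log2 ratio of -3.01 with an interval of -8.48 to -0.11. Avp, vasopressin, was at 1 fragment in each group. Oxtr, Pomc and Mc4r had intervals that included 0.

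Markers of tissue next to mPFC were read beside these genes. For septum and hypothalamus, 9 of 10 markers of at least 0.5 RPKM were lower in CUMS. All 9 of them were beyond a fold of 1.5 (7.2% of all genes in either direction). The remaining marker, Pmch, was higher in CUMS and also beyond this fold. It measured 0.445 RPKM in control versus 0.71 RPKM in CUMS (5 and 8 fragments), with an interval that included 0. The summed level of the 10 markers measured 93.6 RPKM in control versus 31.0 RPKM in CUMS. Of its scarce markers Otp was listed at 0.01 RPKM in CUMS and Agrp at 0.01 RPKM in control. All 7 olfactory bulb markers were lower (summed 69.9 and 33.4 RPKM), as were all 9 striatum markers (summed 556 and 458 RPKM) and all 4 hippocampus markers of at least 0.5 RPKM (summed 80.3 and 73.5 RPKM). All 8 markers of excitatory neurons of neocortex were higher in CUMS, with a summed level of 763 RPKM in control versus 955 RPKM in CUMS. The marker lists were chosen with earlier results of these data known. Zic1, Nts, Baiap3, Ecel1, Magel2 and Peg10 of septum and hypothalamus were already reported as lowered by the study. So were Th, Doc2g and Calb2 of the olfactory bulb. The counts of lower markers in these lists are thus no independent reading of the tissue. The part of these tissues in the lower values of Crhr2, Avpr1a, Oxt and Nr3c2 was not tested.

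Among other cells, all 6 oligodendrocyte markers were lower (summed 1708 and 1139 RPKM) and all 4 red blood cell markers were higher (summed 222 and 385 RPKM). Astrocyte markers were lower in 3 of 6 (summed 797 and 741 RPKM), microglia markers in 2 of 6 (summed 132 and 140 RPKM) and endothelial markers in 2 of 4 (summed 57.1 and 42.7 RPKM). The 1 choroid plexus marker of at least 0.5 RPKM, Kl, was 0.93 and 0.88 RPKM, and of the scarce ones Ttr was listed at 0.01 RPKM in CUMS and Kcnj13 at 0.01 RPKM in control. The study had already reported Mbp, Mobp and Cldn11 of the oligodendrocyte list as lowered, and Hba-a1, Hba-a2 and Hbb-b1 of the red blood cell list as raised. The part of these cells in the values of the 7 genes was not tested.

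Genes that carry the receptor signals onward were read next. Of 10 coregulators of the steroid receptors, 9 were lower in CUMS with a median log2 ratio of -0.17, beside -0.08 for the 7 members and -0.02 for all genes. The interval of 7 coregulators lay below 0 (16.8% of all genes), and 0 passed a fold of 1.5. An interval narrows with fragment number, and the share over all genes was not matched for it. The lowest ratio was that of Ppargc1a, a coactivator of mitochondrial genes, at -0.46 (-0.66 to -0.26). Of 17 genes of the Gs, cyclic AMP and CREB route that CRHR1 uses, 7 were lower and 10 higher, with a median of 0.03 and 0 past a fold of 1.5. Among steroid synthesis and transport genes, 4 of 7 were lower (median -0.01). In this list Akr1c14, which reduces steroids, was 0.505 and 0.225 RPKM on 18 and 8 fragments (log2 ratio -1.17, -2.59 to 0.09). Tspo, a mitochondrial cholesterol-binding protein, was 2.41 and 3.87 RPKM (log2 ratio 0.69, 0.00 to 1.37).

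**Figure D4:**
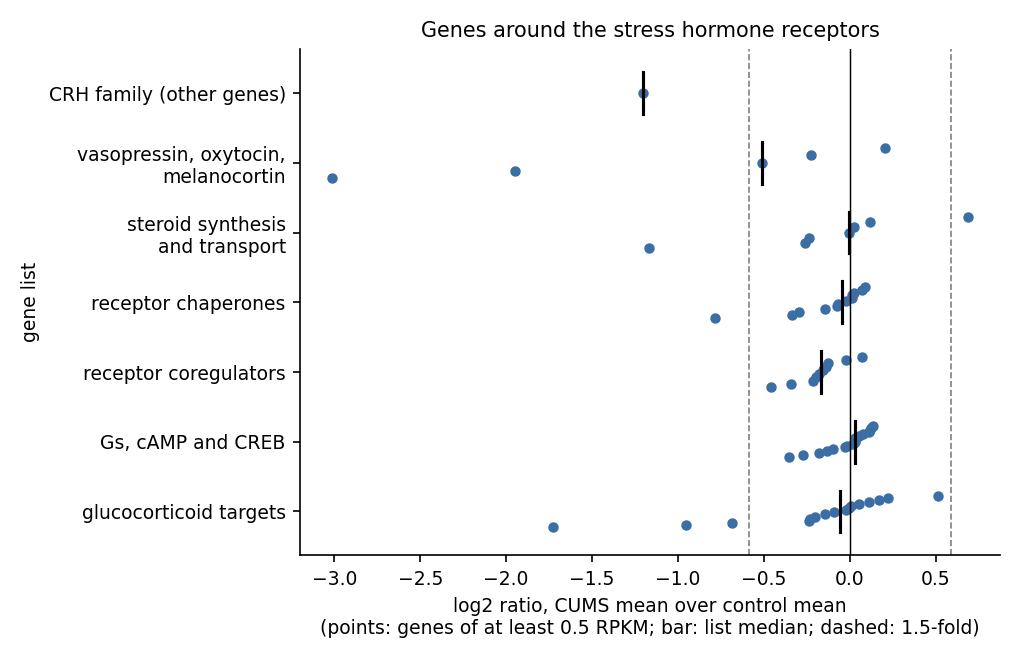
Log2 ratio of CUMS over control means (horizontal axis) for genes of at least 0.5 RPKM in 7 gene lists around the members (vertical axis), 1 point per gene, with a bar at the list median and dashed lines at a fold of 1.5. Genes of the cyclic AMP route lie on both sides of 0, 9 of 10 coregulators lie to its left, and among chaperones Hspa1a (-0.79) lies past the dashed line, while Oxt (-3.01), Avpr1a (-1.95) and Plin4 (-1.73) lie farther left.

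Targets of the glucocorticoid receptor did not share a direction. Of 16 targets, 10 were lower and 6 higher in CUMS, with a median log2 ratio of -0.06. Past a fold of 1.5 were 3 of the 16, all lower in CUMS, beside 7.2% of all genes in either direction. The counting interval lay below 0 in 6 targets and above 0 in 3 (16.8% and 12.5% of all genes, not matched for fragment number). Plin4, a lipid droplet protein, was 1.54 and 0.465 RPKM (log2 ratio -1.73), Sult1a1, a sulfotransferase, was 4.79 and 2.48 RPKM (-0.95), and Cdkn1a, a cell cycle inhibitor, was 13.7 and 8.52 RPKM (-0.68). The highest ratio was that of Sgk1, a kinase, at 23.1 RPKM in control versus 32.9 RPKM in CUMS (log2 ratio 0.51, 0.39 to 0.64). Per1, a target that is also a clock gene, was 40.0 and 40.1 RPKM. Sgk1 and Per1 were named after their values had been seen.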

How the data were processed

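The deposited table held, per the file headers, the mean RPKM of each group and the gene length that the authors used. Per the labels and the study's methods, the authors sequenced poly(A) RNA, trimmed the reads, aligned them to mm10 with TopHat 1.0.12 and Bowtie 0.11.3 and counted uniquely aligned reads. The submitters' processing notes name both tools and the build. The authors wrote 0.01 RPKM in place of 0. The table also holds the authors' own log2 ratio, direction and probability of change, which were not used.

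The sequencing depth was estimated from genes shorter than 1000 bases. The product of mean and length falls near whole multiples of a step of 67.7 (control) and 67.2 (CUMS) RPKM x bases, the worth of 1 fragment in 1 of 2 libraries, in 86.5% and 86.2% of 406 and 392 values (tolerance 0.15 steps). With shuffled lengths it did in 29.6% and 33.4%. The fitted step was 64.7 and 64.0 for genes of 1300 to 1700 bases, so that the fragment numbers are approximate. The reads and mapping rates that the study reported give more fragments per library than this estimate, and the difference was not resolved. At 2 times the estimated depth, which lies in that direction, 3 members in place of 2 had an interval apart from equal levels. Intervals of CUMS over control are exact Clopper-Pearson 95% intervals and those of levels exact Poisson. Intervals between genes are normal on the log2 scale. All cover counting error only, since group means hold no spread between mice. PCR copies are not independent molecules, so the intervals may be too narrow even for counting error. The intervals and the step were tested on simulated data.

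All 7 members were named in full. From the 7 gene lists, genes past a fold of 1.5 with at least 0.5 RPKM and a few fixed partners (Fkbp5, Crhr2, Hsd11b2, Avp, Hsp90aa1, Hsp90ab1) were named. Other list genes in the text were named after their values had been seen. The members and lists were chosen with earlier results of these data known. No gene of most similar pattern was named, since 2 group means give 1 ratio per gene. Gene spans are RefSeq on GRCm38.p6, matched by gene identifier. Exon overlaps are from GENCODE M21. Promoters of Crh and Nr3c1 were not used here. Python 3.11.15, numpy 2.4.6, pandas 2.3.3 and scipy 1.17.1 were used.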

Additional observations from a re-analysis of the deposited data

How the results depend on the processing

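No paired analysis was possible because no column belongs to 1 library. A limma fit over libraries, a replicate block and fits that leave out a replicate were not run for this reason. Of 74 values under other settings, 71 stayed within the counting interval or near the reported value. A change from 2 to 3 members counted as near, as did a list median within 0.1 in log2. Most settings, such as the rescalings, were too small to move a value past these limits. The count of 71 is therefore no check of robustness. The member log2 ratios stayed within their intervals in 28 of 28 cases, from -0.44 to -0.42 for Fkbp4 and from -0.32 to -0.28 for Nr3c2. Those of Nr3c1 (-0.01 to 0.02) and Hsd11b1 (-0.02 to 0.01) lay on either side of 0 under the rescalings. These shifted every log2 ratio by 0.02 (median of 0) or -0.01 (equal total). The number of members past the fold threshold was 1 with a threshold at a ratio of 0.8 in place of 0 at a fold of 1.5. The number with an interval apart from equal levels was 2 with 0.5 times the depth and under both rescalings, and 3 with 2 times the depth, where the interval of Crhr1 lay above 0. Without a minimum level, the median of the other CRH family genes was -0.53 in place of -1.20, and that of the vasopressin, oxytocin and melanocortin genes was -0.37 in place of -0.51, because genes of 4 or fewer fragments in CUMS enter. The absence of single-mouse values limits every comparison, and depth limits Crh most.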
